A study of Mus musculus with 6 samples.

Results

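The genes described here are 9 genes that let cells take up nucleosides or sense uridine nucleotides from outside, out of 54532 genes in the count table. They are 2 concentrative nucleoside transporters (Slc28a2 and Slc28a3), 4 equilibrative ones (Slc29a1, Slc29a2, Slc29a3 and Slc29a4) and 3 P2Y receptors (P2ry2, P2ry6 and P2ry14), each found by its gene name, which matched 1 row apiece. The cells were HSPCs (haematopoietic stem and progenitor cells, which renew the blood lineages) taken from bone marrow of aged C57BL/6 mice of wild-type (WT) genotype, and their mRNA was sequenced. Of the 6 libraries, 3 were made from cells given uridine and 3 from cells given vehicle. Genotype, strain, tissue and cell type are the same in both groups. The labels give no dose, duration, age in months, sorting markers or number of mice, and they speak of cultured cells. They do not say whether replicates are separate cultures or animals, so every p-value refers only to the spread among the 6 libraries, which may be technical.

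Uridine cannot cross the plasma membrane by itself at a useful rate and needs carriers. The concentrative transporters of the Slc28 family couple uptake to sodium and can move nucleosides against their gradient, whereas the equilibrative transporters of the Slc29 family let them pass in either direction down the gradient. P2Y receptors are G protein-coupled receptors at the cell surface that respond to nucleotides outside the cell. P2Y2 responds to UTP and ATP, P2Y6 to UDP, and P2Y14 to UDP-glucose and related UDP-sugars, while uridine itself is not their ligand.

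Of the carriers, 3 were lower in uridine-treated cells: the sodium-coupled carrier gene Slc28a2 by 22.6%, the intracellular carrier gene Slc29a3 by 14.4% and the main plasma membrane carrier gene Slc29a1 by 10.5%. No member was called higher. The receptor genes P2ry2 and P2ry14 and the carrier gene Slc29a2 were not called, and Slc28a3, Slc29a4 and P2ry6 had too few counts for the test. The 3 members called lower compare with 1488 of all 14706 genes tested (10.1%), and 7.18% of the tested genes were called higher. A gene was called where the p of edgeR's quasi-likelihood test, adjusted over all tested genes by Benjamini and Hochberg's method, was under 0.05. CPM are counts scaled to the libraries' totals and normalization factors, and log2 fold changes are uridine over vehicle with their standard error (SE).

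The promoters of 3 carrier genes are shown because all 3 were called lower. Whether these genes are regulated together was not tested. Each window runs from 250 bases before to 50 bases after the RefSeq start site nearest the gene's 5′ end (GRCm38.p6, RefSeq). Capitals mark the letters GGGCGG (the GC box) and AGGAAG (a form of the ETS factor site that PU.1 prefers), searched on both strands. Other forms of the ETS factor site were not searched or marked.
Slc28a2, chr2:122426185-122426484, plus strand: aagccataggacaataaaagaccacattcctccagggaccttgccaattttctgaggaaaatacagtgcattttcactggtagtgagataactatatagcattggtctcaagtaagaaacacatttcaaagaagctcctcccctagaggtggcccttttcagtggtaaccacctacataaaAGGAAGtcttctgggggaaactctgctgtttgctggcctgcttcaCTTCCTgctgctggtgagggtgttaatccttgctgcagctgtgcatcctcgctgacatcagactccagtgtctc
Slc29a1, chr17:45599569-45599868, minus strand: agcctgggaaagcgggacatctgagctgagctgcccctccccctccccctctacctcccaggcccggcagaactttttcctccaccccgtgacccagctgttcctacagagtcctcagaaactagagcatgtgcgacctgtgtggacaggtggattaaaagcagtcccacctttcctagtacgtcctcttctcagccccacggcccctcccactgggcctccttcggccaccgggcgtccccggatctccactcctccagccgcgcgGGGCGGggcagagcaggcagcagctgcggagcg
Slc29a3, chr10:60752733-60753032, minus strand: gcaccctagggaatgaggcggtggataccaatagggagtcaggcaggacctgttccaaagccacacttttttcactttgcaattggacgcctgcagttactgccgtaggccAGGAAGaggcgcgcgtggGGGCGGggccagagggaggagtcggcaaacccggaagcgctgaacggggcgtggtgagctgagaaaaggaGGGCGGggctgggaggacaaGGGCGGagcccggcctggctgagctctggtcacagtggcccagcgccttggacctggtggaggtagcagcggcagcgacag

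The windows shown for Slc29a1 and Slc29a3 were alike in their G and C content, and that of Slc28a2 held less. Slc29a1 has 8 such windows in RefSeq, of which only the nearest to its 5′ end is described. Slc28a2 and Slc29a3 have 1 each. The window of Slc28a2 held 46.7% G and C, 0 copies of GGGCGG and 2 of AGGAAG. That of Slc29a1 held 65% G and C, 1 copy of GGGCGG and 0 of AGGAAG, and that of Slc29a3 held 64.3% G and C, 3 copies of GGGCGG and 1 of AGGAAG. Of 32851 promoter windows of the same length, 35.7% held GGGCGG and 35.4% held AGGAAG, and the median G and C content was 52.7%. Slc29a2, which was not called, held 1 copy of each. A match describes letters in the window and shows no bound factor.

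Slc28a2 (ENSMUSG00000027219; chromosome 2, 122426477 to 122461137 in mm10, plus strand) encodes CNT2, which carries purine nucleosides and uridine into cells together with sodium. It stood at 46.6, 42.4 and 44.1 CPM in the uridine libraries, against 58.0, 56.4 and 57.5 CPM in the vehicle libraries. Every uridine library was below every vehicle library. Groups did not overlap, in either direction, for 30.8% of all genes tested, the share to set beside each such statement on a gene here. The means were 44.4 ± 2.12 CPM with uridine and 57.3 ± 0.854 CPM with vehicle (SD, n = 3 each), and the log2 fold change was -0.37 ± 0.058 (SE; 95% interval -0.48 to -0.25, adjusted p = 5.6e-07). Among the 1488 genes that fell this was number 520 by size, so it was a change of middling size for these data. The other called carriers ranked lower, Slc29a3 at number 800 and Slc29a1 at number 1051. The call of Slc28a2 held under all 16 alternatives, with log2 values of -0.41 to -0.34.

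Slc28a2 has a close copy on the same chromosome, listed as Gm14085 in the table and as Slc28a2b in RefSeq. Their longest transcripts were 95.9% identical over 3749 aligned bases. Of 4414 distinct stretches of 150 bases (the length of 1 read) in the transcripts of Slc28a2, 434 (9.83%) also occur in Gm14085, so a small part of the reads could belong to either gene. Gm14085 itself had 8, 9 and 8 counts in the uridine libraries, against 26, 18 and 15 counts in the vehicle libraries. Its groups did not overlap, but at this depth it was not called (log2 fold change -1.20 ± 0.45, adjusted p = 0.056). Its counts were far below those of Slc28a2, which had 711 to 799 with uridine and 1003 to 1033 with vehicle. The sources do not say how reads with several best positions were counted.

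Slc28a3 (ENSMUSG00000021553; chromosome 13, 58545399 to 58610877), whose product CNT3 carries both purine and pyrimidine nucleosides, had 0 counts in all 3 uridine libraries and all 3 vehicle libraries. A count of 0 allows up to 3 counts, or 0.161 to 0.186 CPM per library (counting error only). Slc28a1, which encodes the pyrimidine-selective CNT1 and is not among the 9 genes, also had 0 counts in every library. Of the Slc28 family, Slc28a2 and its copy were thus the members with counts.

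Slc29a1 (ENSMUSG00000023942; chromosome 17, 45585200 to 45599606, minus strand) encodes ENT1, the widely expressed equilibrative carrier of the plasma membrane. It stood at 56.1, 57.7 and 55.8 CPM in the uridine libraries, against 64.6, 65.7 and 59.3 CPM in the vehicle libraries. The groups did not overlap, but vehicle replicate 3 came close to the uridine libraries. Means were 56.5 ± 1.01 CPM with uridine and 63.2 ± 3.46 CPM with vehicle (SD, n = 3 each), a log2 fold change of -0.16 ± 0.053 (95% interval -0.266 to -0.055, adjusted p = 0.024). The adjusted p passed 0.05 when vehicle replicate 1 (0.099), vehicle replicate 2 (0.14), uridine replicate 1 (0.075) or uridine replicate 3 (0.067) was left out, and under the Wald test of DESeq2 (0.069). Over all 16 alternatives it ran from 0.0094 to 0.14. The log2 value was below 0 in each of them (-0.21 to -0.13). An antisense gene, Gm17080, shares 275 exon bases with Slc29a1 (6.9% of them) and had 4 to 17 counts with uridine and 5 to 16 counts with vehicle.

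Slc29a3 (ENSMUSG00000020100; chromosome 10, 60712072 to 60752794, minus strand) encodes ENT3, which works inside the cell and releases nucleosides from lysosomes. It stood at 41.8, 41.2 and 40.7 CPM in the uridine libraries, against 48.7, 50.5 and 45.3 CPM in the vehicle libraries. All uridine libraries lay below all vehicle libraries, with a tighter spread in the uridine group. The means of 41.2 ± 0.55 CPM with uridine and 48.2 ± 2.62 CPM with vehicle (SD, n = 3 each) gave a log2 fold change of -0.22 ± 0.062 (95% interval -0.35 to -0.10, adjusted p = 0.0053). Without vehicle replicate 2, its highest library, the value was -0.19 and the adjusted p was 0.055; over all 16 alternatives the adjusted p ran from 0.003 to 0.055.

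Slc29a2 (ENSMUSG00000024891; chromosome 19, 5024006 to 5031971, plus strand) encodes ENT2, a second plasma membrane carrier that also accepts nucleobases. It stood at 10.5, 8.89 and 10.4 CPM in the uridine libraries, against 9.67, 11.5 and 8.46 CPM in the vehicle libraries. The groups overlapped, with means of 9.92 ± 0.892 CPM with uridine and 9.88 ± 1.54 CPM with vehicle (SD, n = 3 each). The log2 fold change was 0.003 ± 0.13, and its 95% interval of -0.26 to 0.265 still holds the values of Slc29a1 and Slc29a3, so a change of their size was not detectable at 152 to 205 counts per library. Whether Slc29a2 differs from them in its response was not tested.

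Slc29a4 (ENSMUSG00000050822; chromosome 5, 142692512 to 142722490, plus strand) encodes ENT4, also called PMAT, which carries monoamines and adenosine and is not known as a uridine carrier. It had 3, 9 and 15 counts in the uridine libraries, against 0, 2 and 5 counts in the vehicle libraries. The groups overlapped (0.529 ± 0.38 CPM with uridine and 0.13 ± 0.14 CPM with vehicle; SD, n = 3 each), and an exact two-sided permutation test gave p = 0.2, where 3 against 3 libraries cannot go below 0.1. With no count filter the adjusted p was 0.15.

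**Figure D1:**
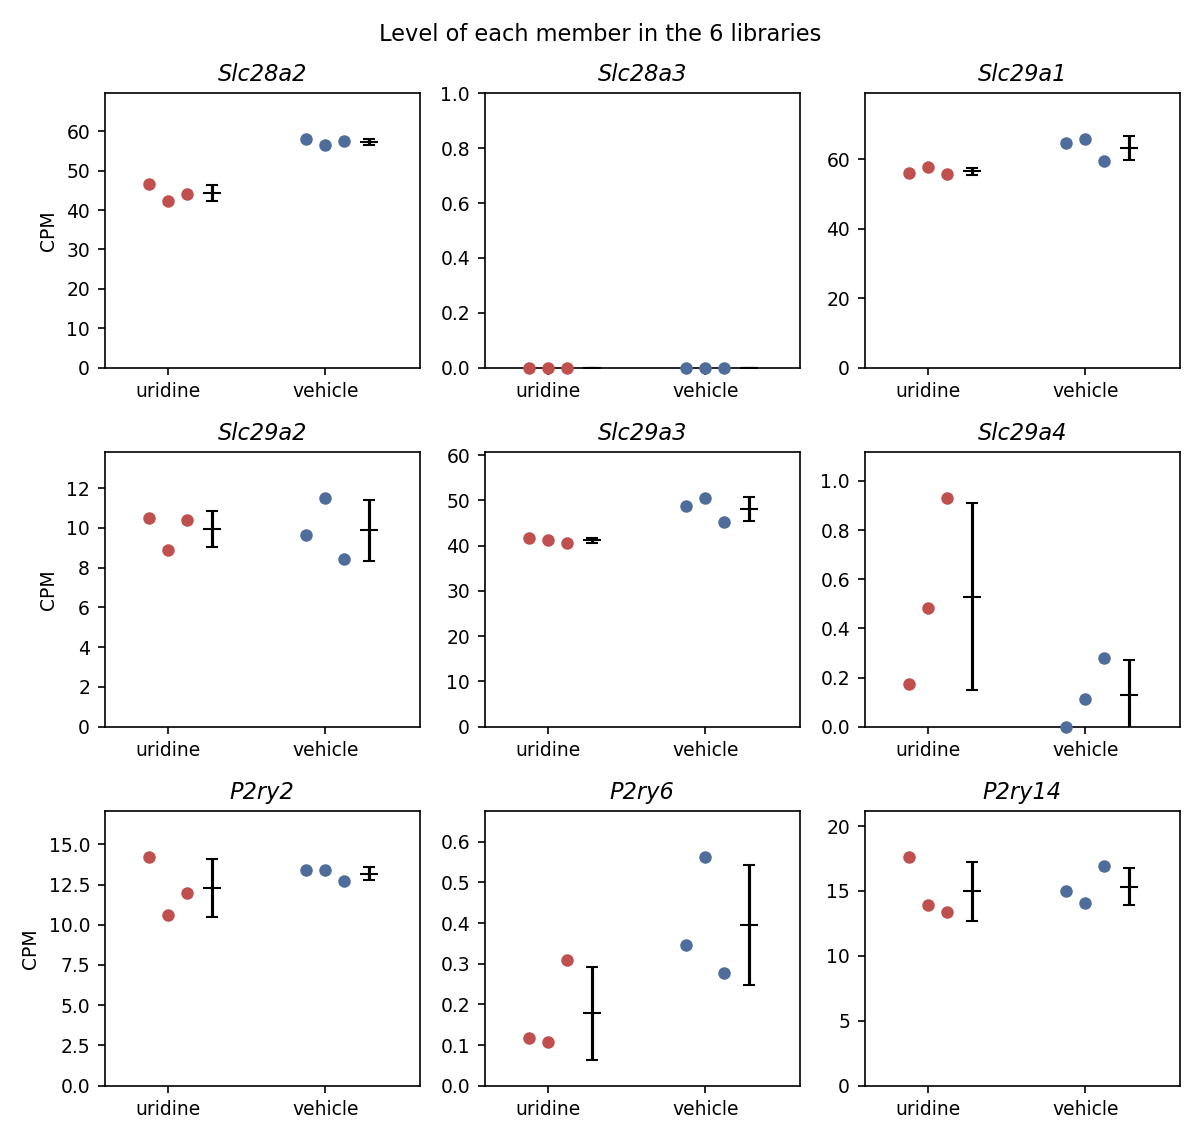
Level in CPM (vertical axes, each starting at 0) of the 9 genes in uridine libraries (red, left) and vehicle libraries (blue, right), with points for libraries and black bars for the mean ± SD (n = 3), the lower end of the Slc29a4 vehicle bar being hidden by the axis. For Slc28a2, Slc29a1 and Slc29a3 the 3 uridine points lie below the 3 vehicle points, and in the other panels the groups overlap or, for Slc28a3, are at 0.

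The receptor genes were less abundant than the main carriers, and none was called. P2ry2 (ENSMUSG00000032860; chromosome 7, 100996568 to 101012866, minus strand), whose product couples mainly to Gq and is found on many blood cells, stood at 14.2, 10.6 and 12 CPM in the uridine libraries, against 13.4, 13.4 and 12.7 CPM in the vehicle libraries. Uridine replicate 1 was the highest of all and uridine replicate 2 the lowest, so the vehicle values lay inside the uridine range. The log2 fold change was -0.10 ± 0.11 (95% interval -0.33 to 0.13, adjusted p = 0.63).

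P2ry6 (ENSMUSG00000048779; chromosome 7, 100937630 to 100974649, minus strand), a Gq-coupled UDP receptor gene best known from macrophages and microglia, had 2, 2 and 5 counts in the uridine libraries, against 6, 10 and 5 counts in the vehicle libraries. It lies beside P2ry2 on the chromosome. Its level was 0.178 ± 0.115 CPM with uridine and 0.395 ± 0.148 CPM with vehicle (SD, n = 3 each; exact two-sided permutation p = 0.2), with some libraries under the 3 counts that a count of 0 allows.

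P2ry14 (ENSMUSG00000036381; chromosome 3, 59113855 to 59153618, minus strand) encodes a Gi-coupled receptor that has been studied in mouse and human haematopoietic progenitors. It stood at 17.6, 13.9 and 13.4 CPM in the uridine libraries, against 15, 14.1 and 16.9 CPM in the vehicle libraries. The ranges overlapped almost entirely, and the log2 fold change was -0.037 ± 0.11 (95% interval -0.25 to 0.18, adjusted p = 0.87). The interval excludes a change as large as that of Slc28a2, whose estimate was -0.37, but not one like that of Slc29a3. P2ry14 overlaps the span of Med12l on the opposite strand without sharing exon bases, and whether strand was used in counting is not given in the sources used here. Med12l had 2048, 2276 and 1919 counts in the uridine libraries, against 1945, 2015 and 2032 counts in the vehicle libraries.

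**Figure D2:**
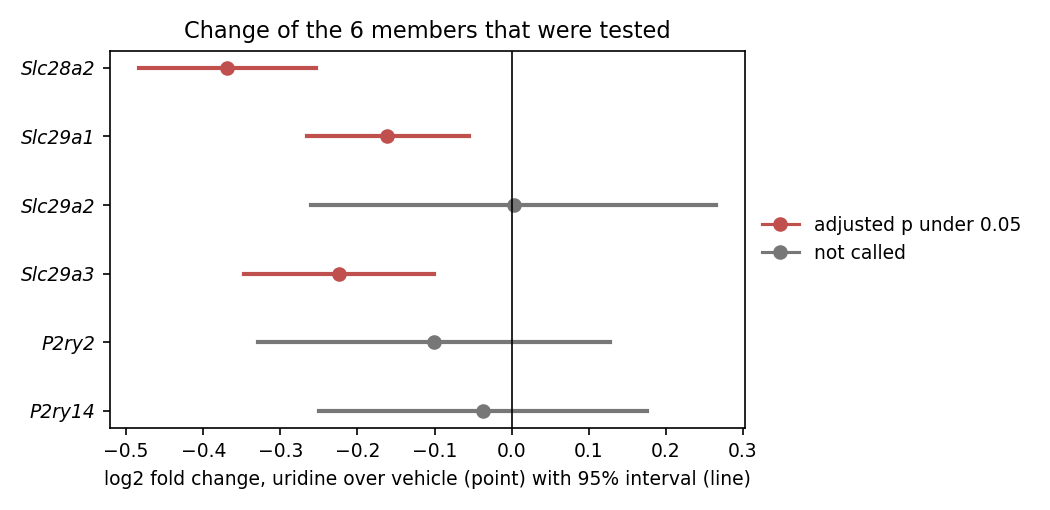
Log2 fold change of uridine over vehicle (points) with its 95% interval (lines) for the 6 genes that passed the count filter. The intervals of Slc28a2, Slc29a1 and Slc29a3 (red) lie below 0, and those of Slc29a2, P2ry2 and P2ry14 (grey) span 0.

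Levels were compared between genes per kilobase of the gene length given in the table (FPKM, from the same scaled counts). The order in uridine libraries was Slc29a1 at 14.1 ± 0.251, Slc28a2 at 10.5 ± 0.504, Slc29a3 at 7.07 ± 0.0942, Slc29a2 at 4.01 ± 0.361, P2ry2 at 3.13 ± 0.468 and P2ry14 at 1.35 ± 0.209 FPKM (SD, n = 3). In vehicle libraries these 6 genes had the same order, with Slc29a1 at 15.8 ± 0.863, Slc28a2 at 13.6 ± 0.203, Slc29a3 at 8.25 ± 0.449, Slc29a2 at 4 ± 0.623, P2ry2 at 3.35 ± 0.0991 and P2ry14 at 1.39 ± 0.13 FPKM. The ranges of neighbours in this order did not overlap within either group, except those of Slc29a2 and P2ry2 in the uridine group, where Slc29a2 was still the higher of the pair in each library.

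The order of Slc29a2 and P2ry2 also rests on the gene length. The table gives Slc29a2 2472 bases, while its exons in GENCODE vM21 cover 3018 bases, and with the longer length Slc29a2 would stand at 3.28 FPKM in both groups. The other 8 genes have the same position and exon length in vM21 as in the table. P2ry14 has the longest exon total of the 9 genes, 11059 bases, which lowers its FPKM beside its CPM. Slc29a4 had 0.185 ± 0.133 FPKM with uridine and 0.0455 ± 0.0489 FPKM with vehicle, and P2ry6 had 0.0617 ± 0.0397 FPKM with uridine and 0.137 ± 0.0513 FPKM with vehicle. These 2 genes overlapped in both groups.

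**Figure D3:**
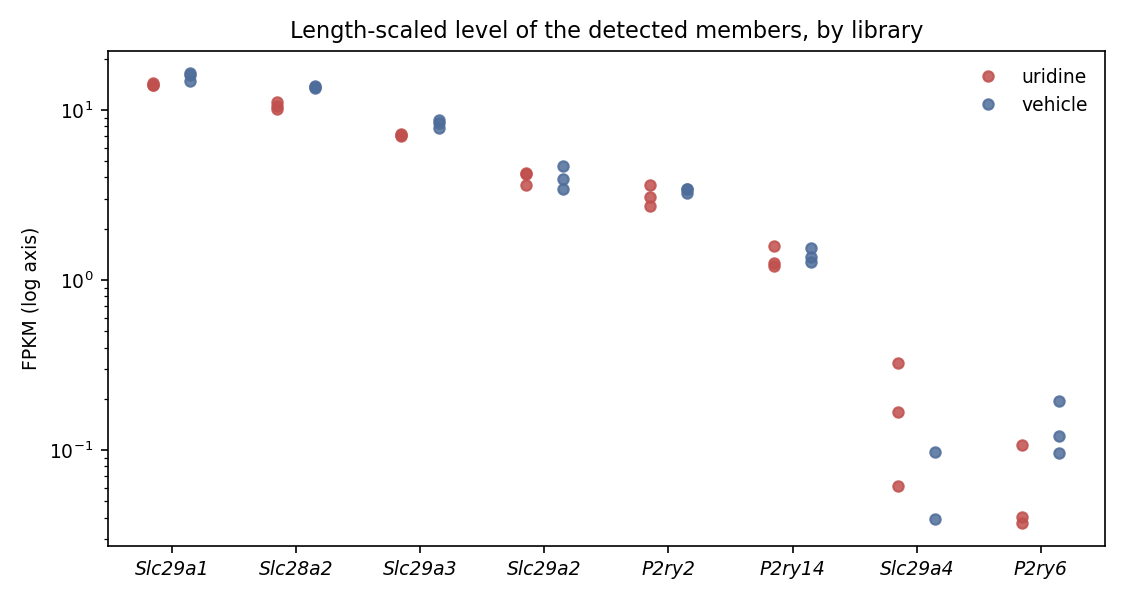
Length-scaled level (FPKM, log axis) of the 8 genes with counts, in uridine libraries (red, left of each pair) and vehicle libraries (blue, right), 1 point per library. Slc29a4 in vehicle replicate 1 and Slc28a3 in all libraries had 0 counts and are not drawn; Slc29a1, Slc28a2 and Slc29a3 stand above the others in both groups.

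Summed over the 6 carriers, the length-scaled level was 36.5, 35.3 and 35.9 FPKM in the uridine libraries, against 42.2, 43.1 and 39.7 FPKM in the vehicle libraries. All uridine sums were below all vehicle sums (35.9 ± 0.625 FPKM with uridine and 41.7 ± 1.75 FPKM with vehicle; two-sided exact permutation p = 0.1, which 3 against 3 cannot undercut). Slc29a1, Slc28a2 and Slc29a3 make up most of this sum, so its fall follows largely from theirs and is no separate result. A sum of transcripts is not a transport rate, since the carriers differ in affinity and place in the cell.

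The shares of the carriers in this sum are given as a description, since no comparison of them could pass 0.05 in this design. The share of Slc28a2 in this sum was 30.3%, 28.6% and 29.2% in the uridine libraries, against 32.7%, 31.0% and 34.4% in the vehicle libraries (exact two-sided permutation p = 0.1, the smallest possible). The share of Slc29a1 was 39.3% ± 1.31 with uridine and 37.8% ± 0.538 with vehicle (SD, n = 3 each; exact permutation p = 0.1). That of Slc29a3 was 19.7% ± 0.294 with uridine and 19.8% ± 0.252 with vehicle (exact permutation p = 0.7).

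The ratio of Slc28a2 to Slc29a1, which does not depend on how libraries are scaled, was 0.792, 0.7 and 0.752 in the uridine libraries, against 0.855, 0.817 and 0.924 in the vehicle libraries. These groups did not overlap (exact two-sided permutation p = 0.1, the smallest possible). The ratio of P2ry14 to P2ry2 was 0.434 ± 0.0339 with uridine and 0.416 ± 0.0515 with vehicle (SD, n = 3 each; exact permutation p = 0.8). The ratio of Slc29a3 to Slc29a1 was 0.501 ± 0.0107 with uridine and 0.523 ± 0.00511 with vehicle (SD, n = 3 each; exact permutation p = 0.1). Over the 9 comparisons of this kind (the sum, 5 shares and 3 ratios), the smallest Benjamini-Hochberg adjusted value was 0.18.

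**Figure D4:**
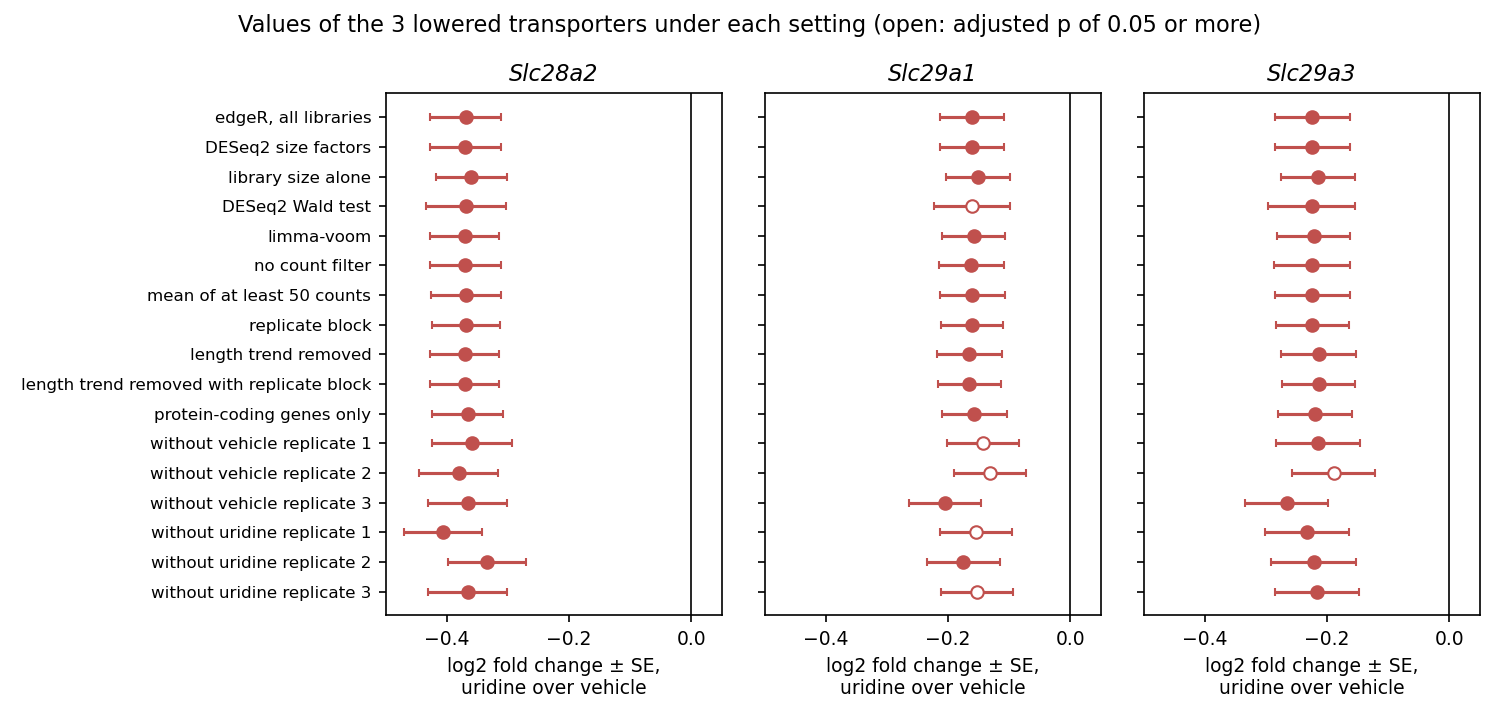
Log2 fold change of uridine over vehicle ± SE for the 3 lowered carriers (panels) in the test on all libraries (top line) and under 16 alternatives (lines below), with open points where the adjusted p was 0.05 or more. All points of Slc28a2 are filled; Slc29a1 has 5 open points and Slc29a3 has 1, and every value is below 0.

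For the 3 called carriers, the protein-coding genes with the most similar profiles were sought among 11041 others whose log2 CPM averaged 1 or more, by the distance between log2 CPM values over the 6 libraries after each gene was centred on its mean. The profile of Slc28a2 was closest to those of Lonrf3, Man2a1 (a Golgi mannosidase gene) and Mfsd4a, at distances of 0.0542, 0.0719 and 0.0772. These genes had log2 fold changes of -0.37 ± 0.098, -0.34 ± 0.041 and -0.31 ± 0.055. The profile of Slc29a1 was closest to those of Klhl24, Xpc (a DNA damage sensor gene) and Rida, at distances of 0.0396, 0.0418 and 0.0458. Slc29a3 was closest to Bcl11a (a transcription factor gene of lymphoid and erythroid cells), Tfcp2 and Cerk (a ceramide kinase gene), at distances of 0.0374, 0.0563 and 0.0638. Since they were picked for likeness to carriers that fell, their direction and the lack of overlap between their groups follow from the choice. Rida (adjusted p = 0.24) and Tfcp2 (adjusted p = 0.14) were not called. The call of Xpc (adjusted p = 0.016) did not hold in every alternative: it was 0.051 under the Wald test of DESeq2, 0.05 without vehicle replicate 1, 0.14 without vehicle replicate 2 and 0.051 without uridine replicate 1 (range 0.0057 to 0.14).

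Among 10 further carriers of nucleosides, nucleobases and nucleotides found in the table, 9 were tested, 1 was called higher and 2 lower, with a median log2 fold change of -0.066 (0.005 over all tested genes). Abcg2, an efflux pump gene of stem cells, rose by 0.22 ± 0.048, with 82.1 ± 4.26 CPM in uridine libraries and 70.5 ± 3.7 CPM in vehicle libraries (SD, n = 3 each, adjusted p = 0.00037). Slc22a4, an organic cation carrier gene, had a log2 fold change of -0.63 ± 0.18 (4.34 ± 1.11 CPM with uridine and 6.75 ± 0.809 CPM with vehicle, adjusted p = 0.007), a call lost without uridine replicate 1 (adjusted p = 0.062; 0.00088 to 0.062 over the alternatives). Abcc4, which exports cyclic nucleotides and nucleotide analogues, had a log2 fold change of -0.12 ± 0.04 (adjusted p = 0.02). The adjusted p of Abcc4 was above 0.05 with vehicle replicate 2 (0.06), vehicle replicate 3 (0.052), uridine replicate 1 (0.079) or uridine replicate 3 (0.1) left out. It was also above it under the Wald test of DESeq2 (0.059) and after removal of the trend on gene length (0.053, and 0.062 if the replicate number was a block too), over a range of 0.012 to 0.1. Slc25a36, a mitochondrial carrier gene for pyrimidine nucleotides, was at -0.003 ± 0.043 (adjusted p = 0.98).

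Of 16 genes that salvage or break down uridine and related pyrimidines, 12 were tested, 1 was called higher and 0 lower (median log2 fold change 0.056). Uck2, which encodes the more active of the uridine-cytidine kinases that trap uridine in the cell, was at -0.015 ± 0.024, with 311.5 ± 1.26 CPM in uridine libraries and 314.7 ± 3.22 CPM in vehicle libraries. Uckl1, a kinase-like relative of Uck1 and Uck2, had a log2 fold change of 0.20 ± 0.071 (34.8 ± 1.12 CPM with uridine and 30.4 ± 0.379 CPM with vehicle, adjusted p = 0.043). This call was lost in 9 of 16 alternatives, among them each vehicle library left out (0.084, 0.11 and 0.077 without replicates 1, 2 and 3), uridine replicate 1 or 2 left out (0.11 and 0.14) and the replicate number as a block (0.053), with adjusted p between 0.032 and 0.14 throughout.

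Of 18 other receptor genes for extracellular nucleotides and nucleosides, 13 were tested, 1 was called higher and 1 lower (median log2 fold change 0.025). Over all tested genes, 17.3% were called in either direction, so few calls in this list are nothing particular to it. P2rx1, an ATP-gated channel gene of platelets and megakaryocytes, rose by 0.22 ± 0.048 (74.8 ± 1.86 CPM with uridine and 64.4 ± 0.493 CPM with vehicle, adjusted p = 0.00036). P2rx7, the ATP-gated channel gene of macrophages that triggers the inflammasome, fell by 1.30 on the log2 scale (SE 0.2), with 2.56 ± 0.398 CPM in uridine libraries and 6.31 ± 0.935 CPM in vehicle libraries (adjusted p = 3.1e-07). Its 36, 53 and 44 counts with uridine were all below the 96, 108 and 132 counts with vehicle.

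Among 26 genes that carry the signal of P2Y receptors, 25 were tested, 5 were called higher and 3 lower, with a median log2 fold change of -0.036. The regulators of G protein signalling Rgs1 (0.52 ± 0.087) and Rgs18 (0.14 ± 0.031) rose, and so did the arrestin gene Arrb1 (0.11 ± 0.032, adjusted p = 0.007). The groups of Arrb1 overlapped slightly, with 176.2, 187.8 and 188.4 CPM in uridine libraries and 168.7, 165.4 and 176.4 CPM in vehicle libraries. Leaving out vehicle replicate 2 (0.074), uridine replicate 2 (0.053) or uridine replicate 3 (0.051) ended the call of Arrb1, over a range of 4.5e-05 to 0.074. The genes called lower were Itpr1, the IP3 receptor of the endoplasmic reticulum (-0.16 ± 0.035, adjusted p = 0.00038), Rgs19 (-0.18 ± 0.05, adjusted p = 0.005) and the G protein subunit gene Gna12 (-0.14 ± 0.044, adjusted p = 0.014).

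With the length trend removed Itpr1 stood at -0.069 (adjusted p = 0.19, range 9.7e-05 to 0.2). The call of Rgs19 was lost without vehicle replicate 3 (0.066, range 0.00091 to 0.066) and that of Gna12 without uridine replicate 1 (0.075, range 0.0073 to 0.075). Among the Gq-class subunits, the kind that P2Y2 and P2Y6 use, Gnaq (-0.10 ± 0.052, adjusted p = 0.19) and Gna11 (0.042 ± 0.068, adjusted p = 0.76) were not called. Gna15 of the same class stood at 0.051 ± 0.044 (adjusted p = 0.49). Gnai2, a subunit of the kind that P2Y14 uses, was not called either (-0.045 ± 0.021, adjusted p = 0.14). Gna14, a further Gq-class subunit gene, was called higher (0.92 ± 0.33, adjusted p = 0.045). It had 51, 34 and 32 counts in uridine libraries, against 34, 18 and 11 in vehicle libraries, so its groups overlapped. Plcb2, a phospholipase C gene, was also called higher (0.089 ± 0.028, adjusted p = 0.02). Values of Gna14 and Plcb2 under the alternatives are not given here.

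The libraries carried transcripts of Kit and Cd34, which are among the markers of the labelled cell type, and little Ly6a. Procr, Slamf1 and Fgd5 of the same list had means of 4.16, 10.9 and 6.84 CPM in uridine libraries. Their means in vehicle libraries were 4.65, 11.1 and 5.09 CPM. Kit, the stem cell factor receptor gene, stood at 382.5 ± 3.12 CPM in uridine libraries and 364.5 ± 1.64 CPM in vehicle libraries, and Cd34 stood at 617.8 ± 9.63 CPM in uridine libraries and 620.1 ± 15 CPM in vehicle libraries (SD, n = 3 each). The 16 HSPC markers summed to 1958 to 2005 CPM in uridine and 1879 to 1921 CPM in vehicle libraries. This sum was lower than that of the megakaryocyte markers given below. Of the 16 HSPC markers, all tested, 9 were called higher and 3 lower (median log2 fold change 0.167). The 3 lower ones, named after their values were seen, were Ly6a, Flt3 and Cd48. Ly6a encodes Sca-1, a surface protein used to define mouse stem and progenitor cells, and stood at 3.5 ± 0.659 CPM in uridine libraries and 15 ± 0.838 CPM in vehicle libraries (SD, n = 3 each), a log2 fold change of -2.10 ± 0.15 (adjusted p = 6.5e-20) and the largest change of the list. Flt3, a receptor gene of multipotent and lymphoid progenitors, stood at -0.33 ± 0.041 (adjusted p = 2.1e-09), and Cd48, a marker that long-term stem cells lack, at -0.29 ± 0.054 (adjusted p = 3.9e-05). Kit was among the higher ones (0.07, adjusted p = 0.024), a call lost without vehicle replicate 2 (0.076), uridine replicate 2 (0.086) or uridine replicate 3 (0.064) and with no count filter (0.08), over a range of 0.00029 to 0.086.

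Markers of monocytes and neutrophils moved with the treatment. All 16 tested of 18 monocyte and macrophage markers were called lower, with a median log2 fold change of -1.32 and a summed level of 364.3 to 364.9 CPM in uridine and 781 to 801.9 CPM in vehicle libraries. By mean CPM over all 6 libraries the most abundant were Lyz2 (lysozyme, log2 fold change -0.87) and Ly6c2 (-1.35). Of 18 neutrophil markers 16 were tested, of which 13 were called lower and 1 higher, with a median of -0.76 and a summed level of 1688 to 1732 CPM in uridine and 3145 to 3219 CPM in vehicle libraries. The most abundant by the same mean were the granule enzyme genes Mpo (-0.90) and Prtn3 (-0.85). Among the monocyte and neutrophil markers at or near 0 in both groups, and not tested, were Ms4a7, Mmp9 and Ly6g.

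Other marker lists moved less or upward. Of 12 tested mast cell and basophil markers, 6 were called higher and 2 lower (median 0.261), with 576 to 600.4 CPM in uridine and 518.4 to 526.7 CPM in vehicle libraries; Gata2 (0.22) and Slc18a2 (0.24) were the most abundant by that mean. Of 11 tested megakaryocyte markers, 6 were called higher and 2 lower (median 0.157), with 4346 to 4414 CPM in uridine and 4105 to 4136 CPM in vehicle libraries. Itga2b was among the higher ones (0.16), and Itgb3 stood at -0.003 and was not called. Of 8 tested erythroid markers, 5 were called higher and 0 lower (median 0.376), with 482.7 to 493.1 CPM in uridine and 382.5 to 397.5 CPM in vehicle libraries. Car2 (0.30) and Tfr2 (0.33) were the most abundant by that mean. The haemoglobin genes Hba-a1 and Hba-a2 were at 0 in all libraries, but the haemoglobin gene Hbb-bt had counts in each. It had 72, 24 and 66 counts in uridine libraries, against 29, 80 and 21 in vehicle libraries, and was not called (adjusted p = 0.82).

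Of 8 tested lymphoid markers, 0 were called higher and 2 lower, Nkg7 (-0.31) and Dntt (-0.84), with 65.1 to 66.8 CPM in uridine and 79.2 to 82 CPM in vehicle libraries. Of 6 tested stromal and endothelial markers, 1 was called higher and 0 lower, with 204.5 to 209.7 CPM in uridine and 211.7 to 214.7 CPM in vehicle libraries. Pecam1 (-0.051) and Pdgfrb (-0.10) were not called. The falls of Slc28a2, Slc29a1 and Slc29a3 were smaller than the median falls of the monocyte and neutrophil markers, and the part of these cell types in them was not tested. In bulk libraries fewer cells of a type cannot be told apart from less RNA of a gene in each cell.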

How the data were processed

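Cells in culture gave total RNA by Trizol, from which poly-A RNA was drawn on magnetic beads and sequenced as paired 150-base reads on an Illumina NovaSeq, per the labels' protocols. What the authors deposited is a table of whole-number counts of reads for each gene, with gene positions and lengths. Per the submitters' processing notes, the tools include HISAT2 2.0.5 and the build is mm10. Neither the counting program nor its strand setting or annotation release is given in the sources used here. Totals were 16109265 to 18638627 counts per library, and a count of 3 corresponds to 0.161 to 0.186 CPM (counting error only).

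From these counts, genes were filtered with filterByExpr, which left 14706, scaled with TMM factors and tested with edgeR 4.0.16 (glmQLFit, robust, treatment as the single term; R 4.3.3), with Benjamini-Hochberg adjustment. Each SE is the log2 fold change divided by the square root of F. FPKM values are the scaled CPM per kilobase of the deposited gene length. The fit was run on counts simulated with the same dispersion for every gene, a simpler setting than these data. Within groups, the chi-square between 2 libraries averaged 2.27 to 2.5 for each gene, more than sampling alone gives, and all libraries were kept. This cannot show whether replicates were separate cultures or animals, since separate preparations of the same RNA can also differ by more than sampling. In edgeR's fit the common coefficient of variation beyond counting error was 3.42%. Alternatives used DESeq2 1.42.0, limma-voom (limma 3.58.1), other filters and scalings, a replicate block, a length correction (lowess) and each library left out. The 9 genes and all lists were chosen with earlier results of these data known. The genes named are the 9, the 3 closest profiles of each called one, up to 3 smallest p-values in each direction of each pathway list, the 2 most abundant genes of each marker list, and overlapping genes or copies. The uncalled pathway genes, Gna14, Plcb2, Procr, Slamf1, Fgd5, Hbb-bt and the markers at or near 0 were chosen after their values were seen. Promoters are from RefSeq (GRCm38.p6).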

Additional observations from a re-analysis of the deposited data

How the results depend on the processing

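The count of 0 members called higher was found under each of the 16 alternatives. The 3 members called lower became 1 to 3 when single libraries were left out; the 1 was Slc28a2, without vehicle replicate 2, and the other alternatives gave 2 or 3. With the replicate number as a block 3 members were called lower and 0 higher, and Slc28a2 stood at -0.37 (adjusted p = 1.1e-05). Libraries that share only a number did not deviate together: the correlation of their deviations from the group means was -0.0151, 0.0267 and -0.0141 for replicates 1, 2 and 3. Under the alternatives the uncalled genes stayed uncalled, with log2 values of -0.098 to 0.13 for Slc29a2, -0.22 to -0.001 for P2ry2 and -0.17 to 0.04 for P2ry14. With a minimum mean of 50 counts or with filterByExpr, Slc29a4 and P2ry6 have no fitted value; with no count filter they stood at 1.94 and -1.14 (adjusted p = 0.15 and 0.55). Of all genes, DESeq2's Wald test called 688 higher and 1173 lower, and scaling by library size alone 1205 higher and 1389 lower, against 1056 higher and 1488 lower in the edgeR test. Depth limits the genes with at most 304 counts per library, whose 95% intervals hold the change of Slc29a1 or more.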

Other observations

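Several P2Y and adenosine receptor genes were near the lower limit of these libraries. P2ry12, the ADP receptor gene of platelets and microglia, had 6, 8 and 7 counts in uridine libraries and 9, 8 and 6 counts in vehicle libraries. P2ry13, another ADP receptor gene, had 13, 2 and 26 counts in uridine libraries, against 30, 28 and 16 counts in vehicle libraries, with uridine replicate 2 the lowest and the ranges overlapping. P2ry4, a UTP receptor gene, and Adora1 and Gpr17 had 0 counts in all libraries. The ADP receptor gene P2ry1 had more counts than P2ry2 and P2ry14, with 23.0 ± 1.94 CPM in uridine libraries and 19.9 ± 1.42 CPM in vehicle libraries (SD, n = 3 each), and was not called (log2 fold change 0.20 ± 0.088, adjusted p = 0.11). Adora2a, which encodes an adenosine receptor, had 28.5 ± 3.76 CPM with uridine and 25.1 ± 2.86 CPM with vehicle (adjusted p = 0.14). Upp1, whose enzyme splits uridine into uracil and ribose phosphate, had 87, 120 and 71 counts in uridine libraries, against 39, 67 and 90 counts in vehicle libraries (log2 fold change 0.53 ± 0.21, adjusted p = 0.067).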
